A study of Mus musculus with 4 samples.

Results

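The TNF superfamily genes were described in RNA-Seq of cultured group 2 innate lymphoid cells (ILC2s), tissue lymphocytes that lack antigen receptors and are a source of type 2 cytokines. Members were the rows of the deposited count table with a symbol beginning in Tnfsf or Tnfrsf and a digit, together with Tnf, Lta, Ltb, Ltbr, Fas, Fasl, Cd27, Cd70, Cd40, and Cd40lg. The rule used no measured value and found 42 of the 27179 rows, of which 17 were ligand genes, 24 were receptor genes, and 1 was an antisense RNA, Tnfsf13os. All cells were large intestinal ILC2s of WT C57BL/6 mice, sorted as CD45.2+Lin-CD127+KLRG1+ cells and expanded for 5 days with 10 ng/mL each of IL-33, IL-25, IL-7, and IL-2. They were then given vehicle (2 libraries) or 100 μM DCA (deoxycholic acid, a bile acid made by gut bacteria; 2 libraries), for 16 hours in the design text and 24 hours in the paper. The age of the mice behind these libraries was not stated. The methods of the study give 6 to 14 weeks in one place and 6 to 8 weeks in another, and name both sexes in general but males alone for C57BL/6J. Whether the libraries came from separate mice or cultures was not stated either, so p-values measure only the spread between these libraries, which may be technical. The cells are a cytokine-expanded culture and not ILC2s taken directly from tissue.

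As background, ligands of the TNF superfamily are membrane proteins that act as trimers, some of them also after being cut from the cell surface. Their receptors either bind TRAF adaptors and lead to NF-κB and MAP kinase signaling or carry a death domain that can recruit caspases. Several receptors, among them GITR (Tnfrsf18), DR3 (Tnfrsf25), 4-1BB (Tnfrsf9), and OX40 (Tnfrsf4), give costimulatory signals to activated lymphocytes, and ILC2s are known to respond through GITR and DR3.

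The libraries held 35838342 and 26564059 counts with vehicle and 32102232 and 244165712 counts with DCA. Levels are TMM-normalized counts scaled to library size (CPM), and values of 4 libraries are given in the order vehicle replicates 1 and 2 and then DCA replicates 1 and 2. Where no read was counted, up to 3 counts remain possible from counting error, or 0.0125 to 0.115 CPM depending on the library. Of 14 ILC2 markers, 13 were at 1 CPM or more in every library, while Thy1 was at 0.0547, 0, 4.24, and 0.0250 CPM. Their levels were not all alike between treatments. Both DCA libraries were below both vehicle libraries for Klrg1 (688, 678, 463, and 356 CPM), Il1rl1, and Areg (14.7% of all genes tested). They were above them for Il2ra, Il7r, Il5, and Icos (18.6% of all genes tested), and the other ILC2 markers overlapped. The B cell marker Cd79b was at 37.5 to 55.2 CPM. The 8 T cell markers added up to 15.9 to 34.7 CPM. Of these, Cd3g was at 10.5 to 25.6 CPM and Trac at 4.65 to 7.99 CPM, with Cd4 and Cd8a at 0. Other lists had lower sums, of 8.29 to 14.3 CPM over 7 epithelial markers and 3.75 to 11.5 CPM over 5 stromal and endothelial markers. The sums were 0 to 1.49 CPM over 5 ILC3 markers and 0 to 0.520 CPM over 5 ILC1 and NK cell markers. The 6 mast cell and basophil markers added up to 6.02, 9.21, 4.71, and 0.349 CPM, with Fcer1a, Mcpt1, and Mcpt2 at 0 in every library. Mcpt8 had 128, 121, 146, and 0 counts, and Tpsab1 had 92, 120, 0, and 0 counts. The 8 macrophage, monocyte, and dendritic cell markers added up to 24.8 CPM in vehicle replicate 1 and to 7.31 and 10.2 CPM in the DCA libraries, with Csf1r, Itgax, and C1qa at 0 in every library. Cd68 was the member of that list at 1 CPM or more throughout. Both of these sums were lower in the DCA libraries, and their part in the results below was not tested. In bulk RNA, fewer cells of a type and less RNA per cell cannot be told apart.

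The receptor transcripts of these ILC2s were mostly those of 4-1BB and GITR, and the ligand transcripts were mostly those of 4-1BB ligand and TRAIL. Of the 42 members, 10 had no count in any library, 17 were counted in 1 to 3 libraries, and 15 were counted in all 4. The genes at 0 throughout were the ligand genes Tnfsf11, Tnfsf13, Tnfsf13b, Cd70, and Cd40lg, the receptor genes Cd27, Ltbr, Tnfrsf17, and Tnfrsf23, and Tnfsf13os. A mean of at least 1 CPM over the 4 libraries was required for a test, and 19 members met it, 15 receptor genes and 4 ligand genes. By group, 11 receptor genes with vehicle and 14 with DCA were at 1 CPM or more in both libraries, against 3 and 2 ligand genes. The receptor genes added with DCA were the low genes Tnfrsf13c, Tnfrsf14, and Tnfrsf21. The matching share of all genes was not counted by group, so these counts are not read as a difference between treatments.

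**Figure D1:**
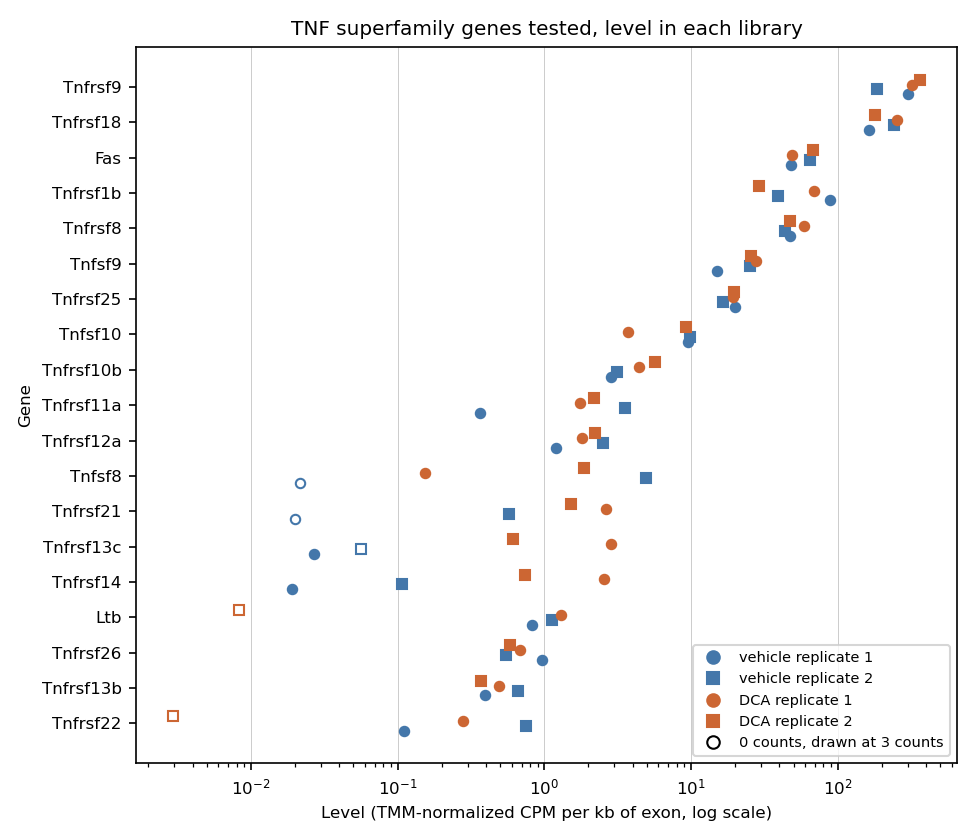
Level of each of the 19 members tested in each library, as TMM-normalized CPM per kb of exon on a log axis, with circles for replicate 1, squares for replicate 2, blue for vehicle, orange for DCA, and open symbols for 0 counts drawn at 3 counts. Tnfrsf9 and Tnfrsf18 lie furthest right in all libraries, and the spread between libraries of one treatment widens among the genes at the bottom.

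Levels were compared between genes per kb of exon. Over the 4 libraries, Tnfrsf9 averaged 293 CPM per kb and Tnfrsf18 209.5 CPM per kb, above 98.3% and 97.2% of the 10590 tested genes that have an exon length. Fas (57.2 CPM per kb), Tnfrsf1b (56.4), and Tnfrsf8 (49.3) followed, above 87.6% to 89.1% of those genes. Tnfsf9 was the highest ligand gene at 23.4 CPM per kb, followed by Tnfrsf25 at 18.9, Tnfsf10 at 8.10, and Tnfrsf10b at 4.03. The other 10 members tested were between 0.285 CPM per kb (Tnfrsf22) and 1.96 CPM per kb (Tnfrsf11a). Neighbours in this order often could not be separated. With vehicle, the libraries overlapped for Tnfrsf9 and Tnfrsf18, for Tnfrsf1b and Fas, for Tnfsf9 and Tnfrsf25, and for each neighbouring pair from Tnfrsf10b down except Tnfrsf12a and Ltb. With DCA, both libraries of Tnfrsf9 were above both of Tnfrsf18, and Fas, Tnfrsf8, and Tnfrsf1b overlapped in turn.

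Summed over the 24 receptor genes, the level was 675, 602, 790.5, and 720.0 CPM per kb. Tnfrsf9 and Tnfrsf18 together made up 68.9% and 70.7% of that sum with vehicle and 72.8% and 75.2% with DCA. The balance between them moved within each treatment, since Tnfrsf9 gave 44.7%, 30.6%, 40.7%, and 50.3% and Tnfrsf18 gave 24.2%, 40.2%, 32.1%, and 24.9%. The same 6 genes, Tnfrsf9, Tnfrsf18, Tnfrsf1b, Fas, Tnfrsf8, and Tnfrsf25, were the top 6 in every library and held 97.6% to 99.1% of the sum.

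Of these genes, several lie side by side on chromosome 4, which carries 9 members (GRCm38.p6, RefSeq). Tnfrsf1b (145212368 to 145246870) and Tnfrsf8 (145267132 to 145315164) are 20.3 kb apart and were at 56.4 and 49.3 CPM per kb. Tnfrsf4 (156013595 to 156016613) and Tnfrsf18 (156026322 to 156028894) are 9.71 kb apart, yet Tnfrsf4 was at 0.428 CPM per kb and Tnfrsf18 at 209.5. A similar gap was seen on chromosome 17, where Tnfsf9 (57105287 to 57107758) was at 23.4 CPM per kb and Cd70, 38.2 kb away, was at 0. In the same chromosome's cluster of Ltb, Tnf, and Lta, with 3.06 and 1.16 kb between genes, the levels were 0.818, 0.478, and 0.00602 CPM per kb.

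Because many of these receptors lead to NF-κB, the promoters of the members were searched for the κB consensus, the sequence that NF-κB dimers bind. RefSeq windows from 250 bases before to 50 bases after a start were at hand for 31 members, and both strands were searched. At least 1 match was found in 3 of them (9.68%), against 5.14% of 27025 genes, and all 3 were among the 15 tested members with a window (20.0%, against 6.20% of 8806 tested genes). These shares are descriptions of letters in a window, with no test. The 3 matches are shown on the strand of the gene, with the match in capitals and overlapping matches joined. They belong to the receptors CD30 and 4-1BB and to lymphotoxin β, and lie at chr4:145315314-145315341 (minus strand), chr4:150927947-150927975 (plus strand), and chr17:35194411-35194438 (plus strand) on GRCm38.p6.
Tnfrsf8: caaaacgcaGGGGAGCCCCctgcgtgcg
Tnfrsf9: agagcagctGGGGATTTCCCaggaggccc
Ltb: agggtgttcGGAAAGTCCCcgggcaggg
The capitals begin 168 bases before the start of Tnfrsf8, 43 bases before a start inside the span of Tnfrsf9, and 87 bases before the start of Ltb. The Tnfrsf9 stretch overlaps an annotated exon of that gene. Tnfrsf9 and Tnfrsf8 were among the 6 highest receptor genes, whereas Ltb was at 1.26, 1.72, 1.98, and 0 CPM.

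To ask whether DCA altered the RNA of these genes, DCA was compared with vehicle by the quasi-likelihood test of edgeR over 11184 genes. None of the 19 members had a Benjamini-Hochberg adjusted p under 0.05 in that test, as for 0% of all genes tested, and DESeq2 (1.13% of all genes) and limma gave 0 members as well. The adjusted p of every member was 0.999. At an unadjusted p under 0.05 there was 1 member, Tnfrsf13c, where 4.27% of all genes passed. DESeq2 gave 2 (Tnfrsf13c and Tnfrsf14, with 7.01% of all genes), and limma gave 1 (Tnfrsf21, with 4.62% of all genes). Without vehicle replicate 1 there were 2 (13.4% of all genes), without vehicle replicate 2 there were 3 (11% of all genes), and without either DCA library there were 0 (1.07% and 2.56% of all genes). DCA was higher in both libraries than either vehicle library for 6 members (18.6% of all genes) and lower for 1 member (14.7% of all genes). The libraries of the other 12 overlapped. Among the 6 were Tnfrsf13c and Tnfrsf14, near 0 with vehicle, which reached the mean of 1 CPM only through their DCA libraries. The filter thus fixed their direction in this count and in that of receptor genes above 0. It did so too in the counts by unadjusted p that hold them, which are therefore no support for a change. The smallest two-sided exact permutation p that 2 libraries against 2 allow is 0.333. The median log2 fold change was 0.10 over the 15 receptor genes (11 above 0) and 0.0080 over all genes. Over the 4 ligand genes it was -0.58 (1 above 0), and it was 0.24 without vehicle replicate 2.

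**Figure D2:**
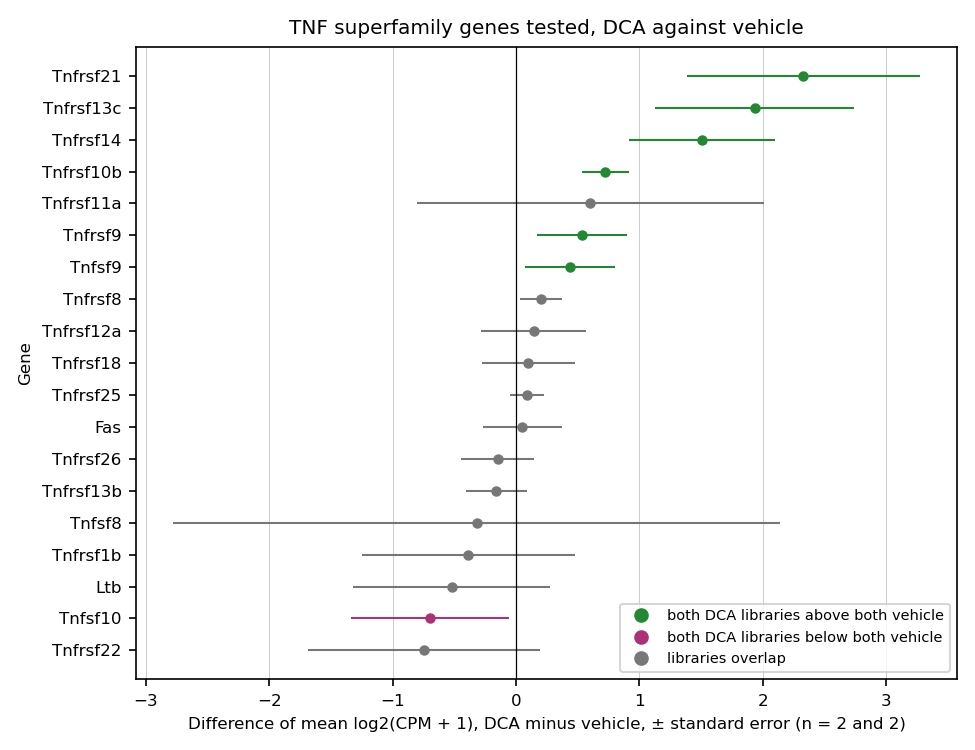
Difference between DCA and vehicle in mean log2(CPM + 1) for the 19 members tested, with bars for the standard error of the difference (2 libraries per treatment), green where both DCA libraries were higher, purple where both were lower, and gray where libraries overlapped. The widest bars belong to Tnfsf8, at 2.46, and Tnfrsf11a, at 1.41, and no gene had an adjusted p under 0.05.

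Among the TRAF-binding receptors, Tnfrsf9 (chromosome 4, 150920155 to 150946104) encodes the costimulatory receptor 4-1BB. It was at 821, 501, 876, and 986 CPM. The DCA libraries were the highest 2 of the 4, although vehicle replicate 1 was nearer to the DCA libraries than to the other vehicle library. The log2 fold change was 0.49, with a difference in log2(CPM + 1) of 0.53 ± 0.37 (standard error, n = 2 libraries per treatment) and an unadjusted p of 0.127 in the edgeR test. Tnfrsf18, which encodes GITR, was at 249, 369, 386, and 273 CPM, so each treatment had a library near the lower and one near the upper value. Its log2 fold change was 0.10 (unadjusted p = 0.756, same edgeR test), and it was -0.19 without vehicle replicate 1.

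Tnfrsf8 encodes CD30, a receptor of activated lymphocytes, and was at 165, 151, 203, and 163 CPM. The libraries overlapped, with a difference of 0.20 ± 0.17 in log2(CPM + 1). Tnfrsf1b encodes TNFR2, the TNF receptor without a death domain, and was at 337, 149, 265, and 110.4 CPM. Both libraries numbered 1 were above both libraries numbered 2, so the spread within a treatment exceeded the difference of -0.39 ± 0.86 between treatments. Tnfrsf11a, which encodes RANK, was at 2.19, 21.2, 10.6, and 13.1 CPM. Here the vehicle libraries enclosed the DCA libraries, and the log2 fold change of 0.02 changed sign with the scaling, at -0.017 with median-of-ratios size factors. Tnfrsf12a, which encodes Fn14, was at 2.33, 4.85, 3.47, and 4.31 CPM, and Tnfrsf13b, which encodes TACI, was at 1.12, 1.87, 1.39, and 1.04 CPM. For both genes the libraries overlapped, with unadjusted p of 0.933 and 0.883 in the edgeR test.

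A pair of TRAF-binding receptor genes was near 0 with vehicle and was counted with DCA. Tnfrsf13c (chromosome 15, 82221742 to 82224380) encodes BAFF-R, known from B cells, where it transmits survival signals. It had 2 and 0 counts with vehicle and 189 and 300 counts with DCA, or 0.0547, 0, 5.85, and 1.25 CPM. Against the 2 pooled vehicle counts, the ratio was 183.5 in DCA replicate 1 (95% exact interval 50.1 to 1526) and 39.1 in DCA replicate 2 (10.7 to 325). These intervals cover counting error only, and not amplification or the spread between libraries, since amplified copies of a molecule could be counted as separate reads. The less deeply sequenced DCA library had the higher level. The unadjusted p was 0.0438 and the adjusted p 0.999 in the edgeR test, and the difference in log2(CPM + 1) was 1.93 ± 0.80. Beside this, the B cell marker Pax5 had no counts in any library, and the B cell marker Cd79b was at 55.2, 47.3, 37.5, and 44.5 CPM.

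Tnfrsf14 (chromosome 4, 154918487 to 154928620) encodes HVEM, a receptor for LIGHT. It had 1 and 4 counts with vehicle and 118 and 254 counts with DCA, or 0.0274, 0.153, 3.65, and 1.06 CPM. Again both DCA libraries were higher, with ratios to the 5 pooled vehicle counts of 45.8 (19.1 to 144) and 13.3 (5.61 to 41.2), and the unadjusted p in the edgeR test was 0.109. Both genes reached the mean of 1 CPM only through their DCA libraries. At such levels a missing transcript was common, since 56.3% of the 1371 genes with a mean between 1 and 3 CPM had a library at 0, against 16.3% between 3 and 10 CPM and 0.0383% at 30 CPM or more. Among the members these shares were 3 of 6, 2 of 3, and 0 of 8.

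The death domain receptors Fas, Tnfrsf10b, Tnfrsf21, and Tnfrsf25 were tested, and Tnfrsf1a was not. All 4 had a log2 fold change above 0 (median 0.43), as did 5672 of all 11184 genes, and in 2 of them both DCA libraries were higher, beside 18.6% of all genes. Tnfrsf10b (chromosome 14, 69767472 to 69784411) encodes the TRAIL receptor of the mouse that has a death domain, and was at 15.5, 17.0, 24.2, and 31.2 CPM. The gap between treatments was larger than that within either, with a difference in log2(CPM + 1) of 0.72 ± 0.19, a log2 fold change of 0.77, and an unadjusted p of 0.153 in the edgeR test. Leaving out each library in turn gave log2 fold changes from 0.57 to 0.93. Tnfrsf21, which encodes DR6, was at 0, 2.37, 10.7, and 6.23 CPM. The vehicle libraries differed from each other, 0 counts against 62, and the difference of 2.33 ± 0.94 had an unadjusted p of 0.237 in the edgeR test.

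Fas (chromosome 19, 34290647 to 34327775) encodes the receptor that triggers apoptosis on binding Fas ligand, and was at 98.4, 133, 100.1, and 140.3 CPM. One library of each treatment lay near 100 CPM and the other well above it, and the difference in log2(CPM + 1) was 0.05 ± 0.32. Tnfrsf25, which encodes DR3, was at 45.7, 37.7, 44.0, and 44.4 CPM. This was the member with the narrowest standard error, a difference of 0.09 ± 0.14. Tnfrsf1a, the TNF receptor with a death domain, had 0, 30, 77, and 0 counts, and was missing from the deepest library.

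Of the receptors grouped as decoy, soluble, or related, Tnfrsf26 was at 3.09 and 1.76 CPM with vehicle, with both DCA libraries between these values, and Tnfrsf22 was at 0.465, 3.17, 1.18, and 0 CPM. The libraries overlapped for both. Tnfrsf23, 16.1 kb from Tnfrsf22 on chromosome 7, had no counts. These 3 genes are close copies of each other, so the split of reads between them is uncertain. Tnfrsf11b, which encodes the decoy receptor osteoprotegerin, had 162 counts in DCA replicate 2 and 0 in the other libraries. Also below the mean of 1 CPM were Tnfrsf4 (8, 18, 18, and 210 counts), Tnfrsf19 (38 counts in DCA replicate 1), and Cd40 (5 counts in vehicle replicate 1).

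Among the ligands, Tnfsf9 encodes 4-1BB ligand and was at 19.3, 32.6, 35.7, and 33.1 CPM. Vehicle replicate 1 was low and the other 3 libraries were close together, so the difference of 0.44 ± 0.37 in log2(CPM + 1) rests on vehicle replicate 1. Without that library the log2 fold change was 0.05, against 0.41 with it (unadjusted p = 0.390, edgeR). Tnfsf10 encodes TRAIL, which can kill cells through death receptors, and was at 50.1, 51.8, 19.6, and 48.9 CPM. Both DCA libraries were below both vehicle libraries, DCA replicate 2 only narrowly. The log2 fold change of -0.57 (unadjusted p = 0.292, edgeR) was -0.069 without DCA replicate 1.

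Tnfsf8, which encodes CD30 ligand, had 0, 495, 19, and 1695 counts, or 0, 18.9, 0.588, and 7.05 CPM. The 2 libraries numbered 2 held nearly all of them, and the difference of -0.32 ± 2.46 in log2(CPM + 1) was the least certain of the members. Ltb, which encodes lymphotoxin β, had 46, 45, and 64 counts in the first 3 libraries and 0 in DCA replicate 2, the deepest library. Tnf itself was not counted with vehicle and had 97 and 32 counts in the DCA libraries, at least 15.9-fold higher against 3 counts per vehicle library. That bound covers counting error only and comes mostly from DCA replicate 1. The other DCA library by itself gave at least 1.35-fold. Tnfsf12 (8, 7, 0, and 69 counts), Tnfsf14 (29), Tnfsf4 (18), Tnfsf18 (8), and Lta (8) had their counts mainly or only in DCA replicate 2, which holds many more reads than the others. Fasl had 0, 2, 0, and 2 counts, and Tnfsf15 had 2 counts in DCA replicate 1. The ligand of DR3 and the ligand of GITR thus had at most 8 counts in any library.

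Ligands were then paired with their receptors, in 25 pairs, and a gene was called detected at 1 CPM or more in both libraries of a treatment. The list is not complete, since Tnfrsf19, Tnfrsf21, Tnfrsf22, Tnfrsf23, and Tnfrsf26 were in no pair, and the counts hold for the listed pairs only. Both genes were detected in 2 pairs with vehicle and in the same 2 with DCA, Tnfsf9 with Tnfrsf9 and Tnfsf10 with Tnfrsf10b. Receptor alone was the commoner state, in 10 pairs with vehicle and 12 with DCA, against ligand alone in 2 and 1 and neither in 11 and 10. The receptors detected in both treatments without a detected ligand were those encoded by Tnfrsf18, Fas, Tnfrsf1b, Tnfrsf8, Tnfrsf25, Tnfrsf11a, Tnfrsf12a, and Tnfrsf13b. The step from 10 to 12 pairs came from Tnfrsf14 and Tnfrsf13c, which were low. It is not read as a difference between treatments, since no share over all genes stands beside it. At 0.5 CPM, 3 pairs were detected with DCA, the added pair being Tnfsf8 with Tnfrsf8.

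**Figure D3:**
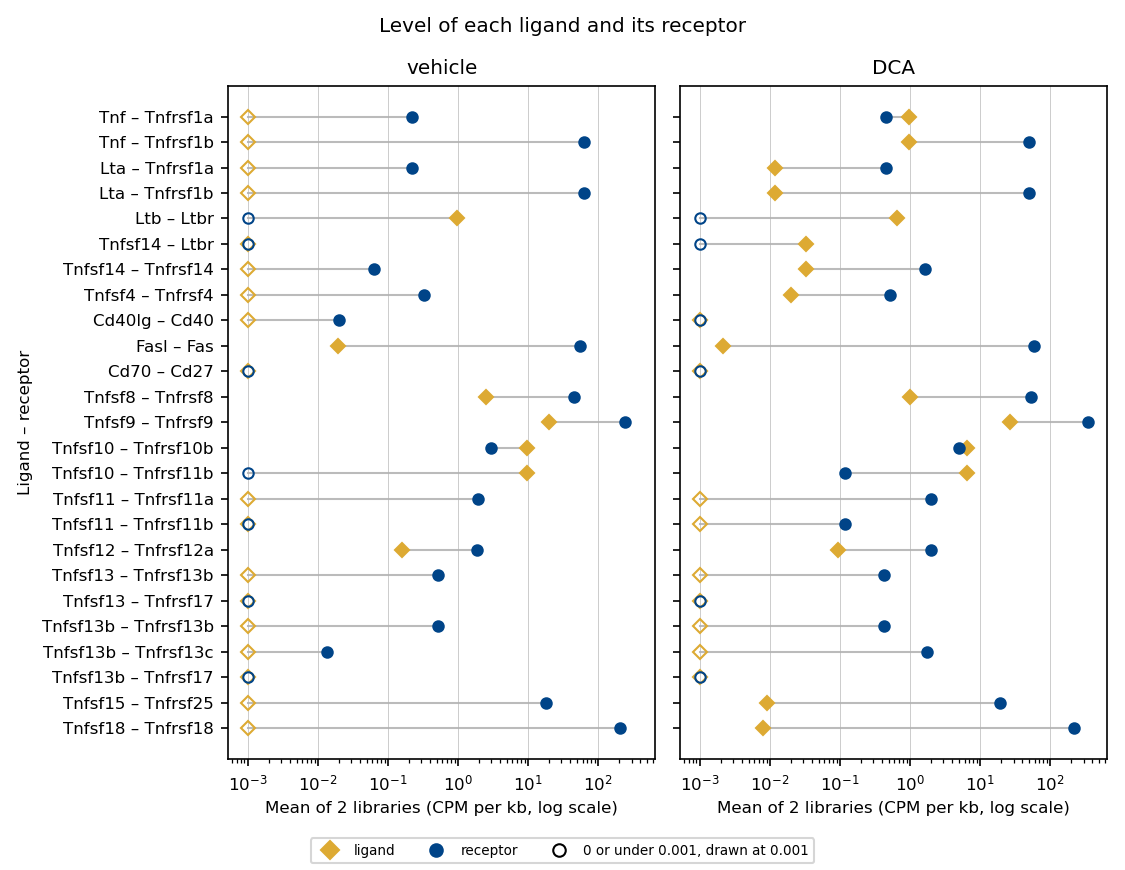
Mean level of the ligand gene (diamond) and the receptor gene (circle) of each of the 25 pairs in the 2 vehicle libraries (left) and the 2 DCA libraries (right), in CPM per kb of exon on a log axis, with open symbols for values of 0 drawn at 0.001. The receptor lies to the right of its ligand in most pairs, and Tnfsf10 with Tnfrsf10b, at 9.68 and 2.98 CPM per kb with vehicle and 6.51 and 5.08 with DCA, is among the exceptions.

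Downstream of the receptors, 40 adaptor and signaling genes were examined, from the TRAF proteins and death domain adaptors to the IκB kinases, the NF-κB subunits, and the proteases ADAM10 and ADAM17, and all 40 were tested. None had an adjusted p under 0.05 by edgeR, DESeq2, or limma. In the edgeR test 5 had an unadjusted p under 0.05, beside 4.27% of all genes, with 6 in DESeq2 (7.01% of all genes) and 6 in limma (4.62%). The number was 7 without vehicle replicate 1 (13.4% of all genes), 8 without vehicle replicate 2 (11%), and 0 when either DCA library was left out (1.07% and 2.56%). The libraries of 26 genes overlapped, while DCA was higher in both libraries for 9 (18.6% of all genes) and lower for 5 (14.7%). The median log2 fold change was -0.08 (17 above 0 and 23 below), and 0.0089 with limma.

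Traf1 encodes an adaptor bound by TNFR2, 4-1BB, and CD30, and was at 59.8, 51.6, 104, and 87.8 CPM. Nfkb2, which encodes the p100 subunit of the noncanonical NF-κB pathway, was at 44.9, 55.0, 101.5, and 77.0 CPM. For both, the DCA libraries were above the vehicle libraries. In CPM, the gap exceeded the spread within a treatment for Traf1 but was smaller than the DCA spread for Nfkb2. The differences in log2(CPM + 1) were 0.77 ± 0.16 and 0.82 ± 0.24 (unadjusted p of 0.0319 and 0.0346, edgeR, adjusted p of 0.999). Rnf31, which encodes the catalytic subunit HOIP of the linear ubiquitin ligase complex, was at 33.0, 34.4, 11.3, and 14.2 CPM. Adam17, which encodes the protease that sheds TNF, was at 77.0, 47.2, 28.7, and 30.7 CPM. Both genes were lower in the DCA libraries, with differences of -1.34 ± 0.16 and -0.998 ± 0.35 (unadjusted p of 0.0216 and 0.0315, edgeR, adjusted p of 0.999). In CPM, the gap exceeded the spread within a treatment for Rnf31 but was smaller than the vehicle spread for Adam17. Traf5 was not counted with vehicle and had 119 and 643 counts in the DCA libraries. This was at least 32.3-fold higher against 3 counts per vehicle library (27.2-fold if only DCA replicate 2 is used). That bound covers counting error only, and not amplification or the spread between libraries. The p of Traf5 in edgeR was 0.0223 before adjustment and 0.999 after it. Traf5, counted among the 5 and among the 9 with both DCA libraries higher, reached the mean of 1 CPM only through its DCA libraries. The filter thus fixed its direction.

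The other genes named had an unadjusted p above 0.05. Traf2 was at 74.8 and 40.7 CPM with vehicle and at 78.3 CPM or more with DCA, and Casp8, the initiator caspase of the death receptors, was at 341, 345, 455, and 348 CPM. Cflar, which encodes the caspase-8 inhibitor cFLIP, was at 34.0, 37.4, 37.5, and 48.7 CPM. For these 3 genes the DCA libraries were the higher ones, each by a gap smaller than the spread within a treatment. Birc3, an NF-κB target that encodes cIAP2, was at 147.7, 140.6, 130.6, and 138.4 CPM, a difference of -0.10 ± 0.05. Nfkbia, which encodes the inhibitor IκBα and was chosen after its values were seen, was at 468, 371, 626, and 584 CPM, a difference of 0.54 ± 0.17 (unadjusted p = 0.0513, edgeR). Tnfaip3 encodes the feedback inhibitor A20 and was at 35.5, 0.0764, 8.92, and 19.1 CPM, a spread within vehicle larger than any difference between treatments. Map3k14 encodes NIK, the kinase of the noncanonical pathway, and was at 0.274, 0.0382, 0.0929, and 4.63 CPM, so that its level rests on DCA replicate 2.

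**Figure D4:**
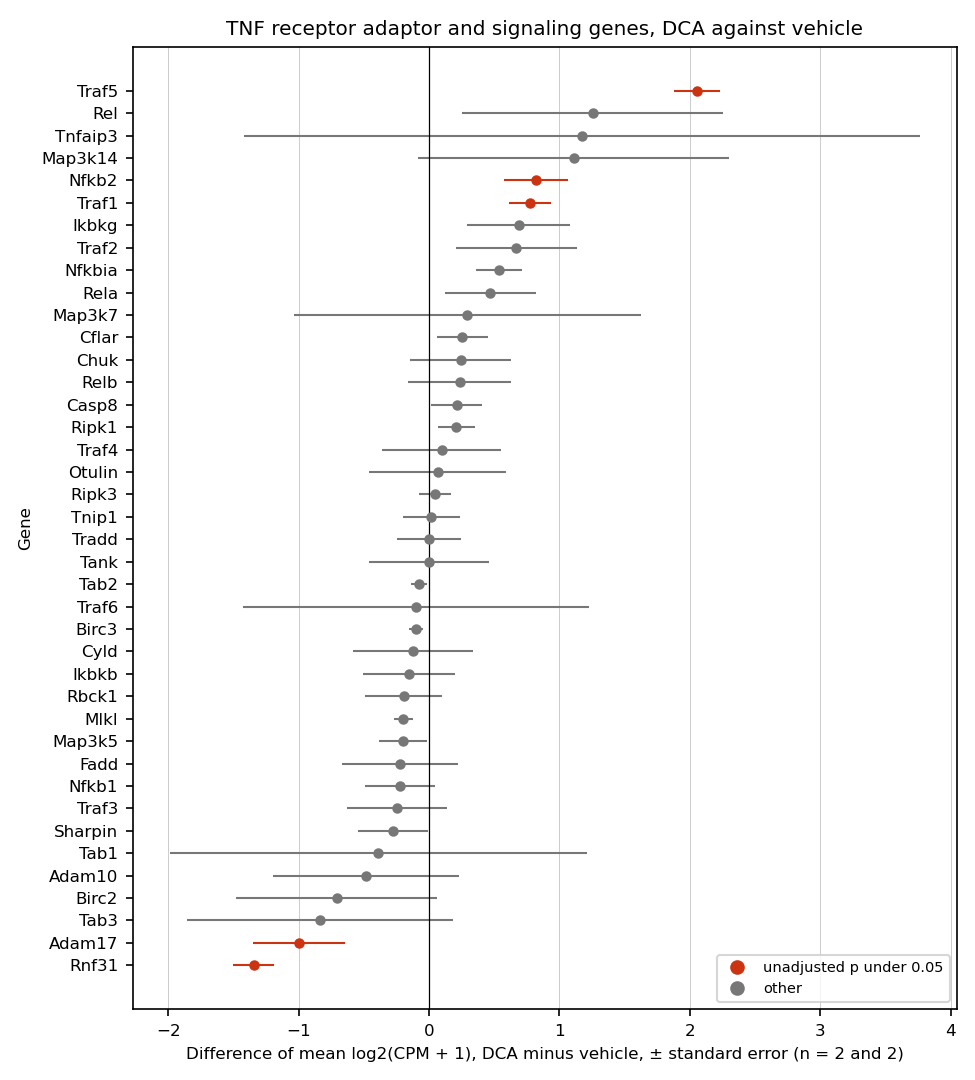
Difference between DCA and vehicle in mean log2(CPM + 1) for the 40 adaptor and signaling genes, with bars for the standard error of the difference (2 libraries per treatment) and red for an unadjusted p under 0.05. Traf5, Nfkb2, and Traf1 lie to the right of 0 and Rnf31 and Adam17 to the left by more than 2 standard errors, and Tnfaip3 has the widest bar, at 2.59.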

How the data were processed

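RNA was measured in 2 vehicle and 2 DCA libraries. Total RNA was made into full-length cDNA with a SMART-Seq HT kit and into libraries for paired reads with Nextera XT. Per the labels, the authors used Cutadapt 1.9, HISAT2 2.2.1, and the mm10 genome. The deposited values are whole-number counts per gene, although the name of the table refers to FPKM. The counting tool, its annotation, and its strand setting are not given in the sources used here, so overlapping genes (Tnfrsf13b and Usp22, Tnfrsf12a and Hcfc1r1, Tnfsf9 and Gm11110, Tnfrsf18 and Gm16008, Tnfrsf4 and Sdf4, Ltb and Mir6973a, Tnfsf12 and Tnfsf13 with Tnfsf13os) are uncertain. If both mates of a pair were counted, a count of 0 allows more than 3 counts.

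Counts were analysed with edgeR 4.0.16 in R 4.3.3 (mean of at least 1 CPM, TMM, quasi-likelihood test, two-sided, Benjamini-Hochberg over 11184 genes), the branch of the planned test for a table of counts. The test was checked on simulated data only, with the relative spread between libraries set equal for all genes, unlike in these libraries. That check does not show how the test performs on the data used here. Each standard error was computed from log2(CPM + 1) of the libraries. Positions are from RefSeq (GRCm38.p6) and exon lengths from GENCODE vM21, which gave 41 of 42 members a length. Every member is named. Of the signaling genes, those with an unadjusted p under 0.05 and Traf1, Traf2, Birc3, Tnfaip3, Map3k14, Cflar, and Casp8 are named. Alternatives were DESeq2 1.42.0 and limma 3.58.1, median-of-ratios factors, other filters, a replicate block, each library left out, and other detection levels. They were applied to the signaling genes after values were seen. The members and lists were chosen with earlier results of these data known. Across genes, the correlation between the deviations of libraries with the same number was 0.0197, so replicate numbers were not taken to pair libraries.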

Additional observations from a re-analysis of the deposited data

How the results depend on the processing

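No member had an adjusted p under 0.05 under any of the 6 alternatives that kept all 4 libraries. The count of members with an unadjusted p under 0.05, 1 in the edgeR test, was 2 with DESeq2, 0 with a mean of at least 5 CPM (11 members tested), and 0 with the replicate block. It was 0 to 3 in the fits without 1 library each, at 2 without vehicle replicate 1, 3 without vehicle replicate 2, and 0 without either DCA library. Whether libraries with the same replicate number share a mouse or culture was not stated. With the replicate block, 450 of all genes were under 0.05 by unadjusted p (0 when adjusted), against 478 without it. Over all genes, an adjusted p under 0.05 was found for 126 with DESeq2, 36 without a filter, and 28 without vehicle replicate 1. Without a filter, 12 ligand genes entered and their median log2 fold change was 2.09, since genes counted only with DCA were added.

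Of the 19 members tested, 8 kept the sign of their log2 fold change in each of the 10 settings that tested them and 11 reversed in at least 1. Tnfrsf11a was -0.017 with median-of-ratios factors and -0.018 with DESeq2, and Tnfsf8 was 1.54 with the replicate block. Tnfaip3 was 1.17 with limma and 2.40 with the replicate block. Over the 4 fits without 1 library each, the log2 fold changes were -0.87 to 2.43 for Tnfrsf11a, -0.65 to 0.12 for Tnfrsf13b, -0.35 to 0.74 for Tnfrsf12a, -10.25 to 0.41 for Ltb, -0.21 to 0.29 for Fas, -3.998 to 11.63 for Tnfsf8, -1.14 to 0.31 for Tnfrsf1b, -0.048 to 0.20 for Tnfrsf25, -0.19 to 0.41 for Tnfrsf18, -0.61 to 0.18 for Tnfrsf26, -10.54 to 0.32 for Tnfrsf22, -1.34 to 7.47 for Tnfaip3, and -0.74 to 5.88 for Map3k14. Values past 7 come from a treatment left with 1 library at or near 0 and are no bounds. The cause of the other changes was not tested. Leaving out a library leaves 1 treatment with 1 library, which is then assumed to vary like the other. With 2 libraries per treatment, a low gene that is missing from a library cannot be separated from one that is not expressed.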
